A study of Homo sapiens with 18 samples.

Results

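Caveolins and cavins are the proteins that build caveolae, the flask-shaped pits of the plasma membrane. Here they are 4 genes of 20374 with a gene row in any of the deposited tables: CAV1, CAV2, CAVIN1 and CAVIN3. They were chosen by name with earlier results of these data known, because CAV1 is among the clearest falls after CCS1477 in H460 and H2023 cells, so their changes in those lines are given as values without a test. All 4 had a gene row in H460 and in H2023 and 3 had one in ABC-1, where CAVIN3 was not analysed. After a filter on low values, tests could be made for all 4 in H460, for 3 in H2023 (without CAVIN3) and for 3 in ABC-1.

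The study measured RNA in 3 human lung cancer cell lines, each taken 24 h after 5 µM CCS1477 or after the solvent DMSO, with 3 libraries in each of 6 groups. CCS1477 (inobrodib) blocks the bromodomain of the histone acetyltransferases p300 and CBP. H460 is labelled a large cell carcinoma line, H2023 a squamous carcinoma line and ABC-1 an adenocarcinoma line. The series describes H460 and H2023 as having activated NRF2, a transcription factor of the oxidative stress response, and ABC-1 as wild type. Each line stands for 1 tumour, so the NRF2 state of a line cannot be told apart from other differences between these tumours. The labels do not state that replicate libraries are independent cultures. The p-values therefore reflect only how far these libraries scatter, and that scatter may be technical.

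CAV1 is the main structural caveolin outside muscle, a protein that sits in the inner leaflet of the membrane and assembles into discs. CAV2 joins CAV1 in hetero-oligomers and needs it to leave the Golgi. CAVIN1 is the peripheral coat protein that stabilises the pit, and CAVIN3 binds CAVIN1 and belongs to the same coat. Caveolae are abundant in lung endothelium, fibroblasts and alveolar type I cells, and CAV1 has been studied in lung cancer both as a gene lost in tumours and as one retained in advanced disease.

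CAV2 and CAV1 are neighbours on the plus strand of chromosome 7, with CAV2 (ENSG00000105971) at chr7:116287380-116508541 and CAV1 (ENSG00000105974) at chr7:116524785-116561184, 16.2 kb further on (GENCODE 29, GRCh38). CAVIN1 (ENSG00000177469) lies on the minus strand at chr17:42402452-42423517, and CAVIN3 (ENSG00000170955) on the minus strand at chr11:6318946-6320647. A stretch of 30 bases from the promoter of each of these caveolin genes is shown, taken from RefSeq (GRCh38.p14, plus strand). The promoter set used here held none for CAVIN1 or CAVIN3, so theirs were neither shown nor searched. Capitals mark the GC box (GGGCGG on either strand, the core to which SP1 binds) that lies nearest to the first RefSeq start.
CAV1, chr7:116524933-116524962: ccctcccagccaCCGCCCccctccagcgcc
CAV2, chr7:116499677-116499706: cgaggcgaggggGGGCGGggccgggcgcta
The capitals span bases 64 to 59 upstream of the start in CAV1, read on the minus strand, and bases 49 to 44 upstream in CAV2. In the 250 bases before that start, CAV1 held 3 GC boxes and CAV2 held 6, and 42.6% of all 34943 RefSeq promoter windows held at least 1. GC content there was 63.6% for CAV1 and 83.2% for CAV2, against a median of 58% over all windows.

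The same window was searched on both strands for 8 other motifs. These were the AP-1 site TGANTCA, the TEAD site GGAATG, the antioxidant response element TGACNNNGC to which NRF2 binds, the forkhead site TAAACA, the NF-kB pattern GGGANNNNCC, the E2F site TTTNGCGC, the CCAAT box and the TATA box TATAAA. For CAV1 only the NF-kB pattern was found, with 3 matches, and 1 of the CAV1 matches overlapped a match of another motif. For CAV2 none of the 8 was found. The share of all windows with the NF-kB pattern was 22.6%, and with the other 7 motifs it ran from 1.49% for the E2F site to 32.04% for the CCAAT box. A match is a string of letters, not a site shown to be bound.

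Depth was 26652276 to 33568201 reads per library in H460, 15352630 to 18261159 in H2023 and 14483979 to 17483292 in ABC-1. Levels are in CPM, the reads of a gene scaled to the total of its library, as mean ± SD over 3 libraries. Changes are log2 differences of CCS1477 over DMSO ± SE on the deposited scale, which has its own scaling and a constant of 4 inside the log, so they can differ from ratios of CPM. A gene is called changed at a Benjamini-Hochberg adjusted p below 0.05 in limma. The first CCS1477 library of H460 stood apart from the other 5 of that line, with 0.795% of its reads in mitochondrial genes against 1.77 to 2.06%. Keratins KRT8, KRT18 and KRT19 were high in all 3 lines, but EPCAM was below 1 CPM in H460 and CDH1 had no gene row there. Of 5 squamous markers, only TP63 had a gene row in H2023, at a summed level of 0.242 to 0.586 CPM with CCS1477 and 1.36 to 2.14 CPM with DMSO, so that line's label was not borne out by its defining markers. In ABC-1, of 5 lung adenocarcinoma markers, MUC1 averaged 33.1 CPM with CCS1477 and 98.4 CPM with DMSO. NKX2-1 averaged 0.624 CPM with CCS1477 and 1.34 CPM with DMSO, and NAPSA, SFTPB and SFTPC had no gene row. Of the squamous markers, SOX2 averaged 66.7 CPM with CCS1477 and 149 CPM with DMSO in ABC-1. TP63 averaged 0.176 CPM with CCS1477 and 1.35 CPM with DMSO there, and KRT5, KRT6A and DSG3 had no gene row.

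With CCS1477, CAV1 stood between 60.6 and 69.0 CPM in the libraries of H460, H2023 and ABC-1, a narrower range than the untreated levels. This is a description across separately made tables. In H460 it stood at 61.0, 62.6 and 61.0 CPM in the 3 CCS1477 libraries, against 219, 215 and 222 CPM in the DMSO libraries. In H2023 the CCS1477 libraries held 61.2, 64.9 and 60.6 CPM and the DMSO libraries 228, 233 and 231 CPM. In ABC-1 the CCS1477 libraries held 69.0, 65.9 and 67.4 CPM and the DMSO libraries 152, 163 and 152 CPM. With CCS1477, each ABC-1 library thus lay slightly above every library of H460 and H2023. Every CCS1477 library lay below every DMSO library of its line, and the groups were far apart compared with their spread.

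The mean level of CAV1 was therefore 3.55-fold lower with CCS1477 in H460 (61.5 ± 0.912 CPM against 218 ± 3.496 CPM in DMSO), with a log2 change of -1.90 ± 0.04. In H2023 it was 3.70-fold lower (62.2 ± 2.34 CPM against 230.3 ± 2.38 CPM in DMSO), with a log2 change of -1.94 ± 0.04. Counted from the lowest log2 change, CAV1 had rank 139 of 13516 genes in H460 and rank 131 of 14572 in H2023, which is what it was chosen on. In ABC-1, whose contrast played no part in that choice, CAV1 was 2.30-fold lower (67.4 ± 1.59 CPM against 155 ± 6.17 CPM in DMSO). Its log2 change there was -1.26 ± 0.05 (limma adjusted p = 1.71e-09), and it had rank 771 of 13543 genes counted from the lowest. In bulk RNA, fewer cells that express a gene and less of its RNA per cell cannot be told apart.

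**Figure D1:**
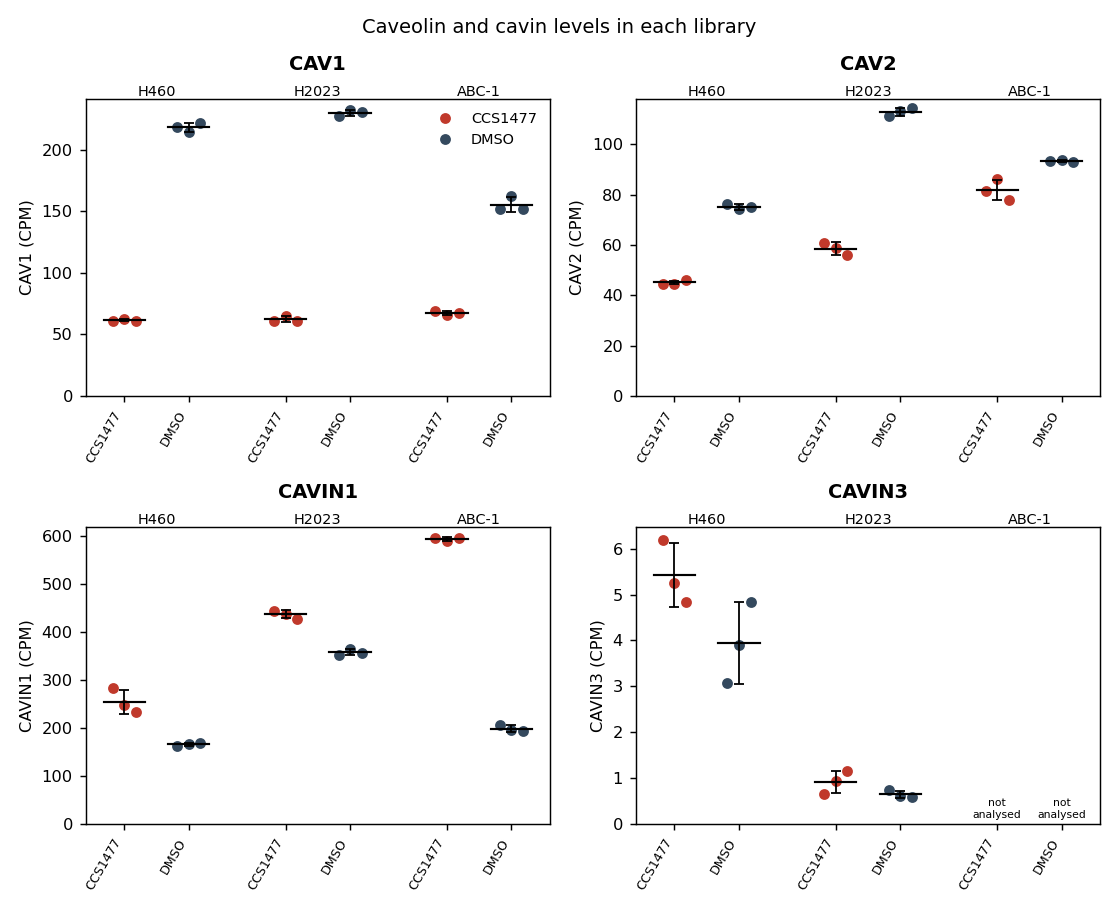
Levels of CAV1, CAV2, CAVIN1 and CAVIN3 in CPM (linear axes from 0) in each library. Points are libraries, with CCS1477 left of DMSO within each line, and lines and bars are the mean ± SD of 3 libraries. CAV1 with CCS1477 lies between 60.6 and 69.0 CPM in every line, below all DMSO libraries, while CAVIN1 lies above its DMSO libraries in every line and furthest in ABC-1.

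CAV2 was lower with CCS1477 as well, but by less than CAV1. In H460 it stood at 44.7, 44.7 and 46.0 CPM with CCS1477, against 76.2, 74.1 and 75.0 CPM with DMSO. In H2023 it stood at 60.8, 58.7 and 55.8 CPM with CCS1477, against 111, 113 and 114 CPM with DMSO. In ABC-1 it stood at 81.2, 86.1 and 78.0 CPM with CCS1477, against 93.4, 93.8 and 92.8 CPM with DMSO. Again no library of one treatment overlapped the other treatment's libraries, but in ABC-1 the gap was small.

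On average CAV2 was 1.67-fold lower with CCS1477 in H460 (45.1 ± 0.751 CPM against 75.1 ± 1.07 CPM in DMSO; log2 change -0.81 ± 0.04). It was 1.93-fold lower in H2023 (58.4 ± 2.51 CPM against 113 ± 1.63 CPM in DMSO; log2 change -0.998 ± 0.04). In ABC-1 it was 1.14-fold lower (81.8 ± 4.08 CPM against 93.3 ± 0.501 CPM in DMSO), with a log2 change of -0.25 ± 0.04 (limma adjusted p = 3.82e-04). Whether the change of CAV2 differs between ABC-1 and the other lines was not tested.

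CAVIN1 was higher with CCS1477 in the same cells in which the caveolins were lower. In ABC-1 it stood at 596, 591 and 598 CPM with CCS1477, against 206, 196 and 193 CPM with DMSO. Its mean there was 3.00-fold as high (595 ± 3.62 CPM with CCS1477 against 198 ± 7.08 CPM with DMSO), with a log2 change of 1.52 ± 0.04 (limma adjusted p = 6.51e-11), at rank 310 of 13543 genes counted from the highest. In H2023 it stood at 445, 439 and 428 CPM with CCS1477, against 353, 365 and 357 CPM with DMSO, a ratio of 1.22 and a log2 change of 0.23 ± 0.03. The groups of H2023 did not overlap either, though their distance was far smaller than in ABC-1.

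In H460 CAVIN1 stood at 282, 248 and 234 CPM with CCS1477, against 163, 165 and 168 CPM with DMSO. The highest of the CCS1477 values is that of the library that stands apart. The ratio of the means was 1.54 (255 ± 25.0 CPM with CCS1477 against 166 ± 2.92 CPM with DMSO) and the log2 change 0.54 ± 0.07. Without that library the log2 change was 0.47 ± 0.04.

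Fibroblasts carry many caveolae, and their marker COL1A1 moved with CAVIN1 in ABC-1 but not in H460 or H2023. It averaged 23.0 CPM with CCS1477 and 7.53 CPM with DMSO and was the 1 of 4 fibroblast markers that reached 1 CPM there, since COL1A2, DCN and PDGFRB had no gene row. The 4 markers summed to 22.6 to 23.6 CPM with CCS1477 and 6.84 to 8.03 CPM with DMSO. In H460 the same sum was 4.43 to 4.95 CPM with CCS1477 and 9.66 to 11.0 CPM with DMSO, and in H2023 it was 5.16 to 7.82 CPM with CCS1477 and 6.37 to 7.56 CPM with DMSO. COL1A1 alone averaged 4.00 CPM with CCS1477 and 7.79 CPM with DMSO in H460. In H2023 it averaged 6.39 CPM with CCS1477 and 6.94 CPM with DMSO. The samples are lung cancer cell lines, and a share of fibroblast RNA in the change of CAVIN1 was not tested. Endothelial markers, of another cell type rich in caveolae, had no gene row in H460 and summed to 0.0651 to 0.242 CPM with CCS1477 and 0.168 to 0.650 CPM with DMSO in H2023, and to 0.0627 to 0.343 CPM with CCS1477 and 2.42 to 3.12 CPM with DMSO in ABC-1.

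CAVIN3 was scarce. In H460 it stood at 6.20, 5.25 and 4.85 CPM with CCS1477 (208, 160 and 156 reads), against 3.08, 3.91 and 4.85 CPM with DMSO (82, 107 and 137 reads). The groups met at 4.85 CPM, and the log2 change was 0.39 ± 0.18, or 0.30 without the library that stands apart. In H2023 it stood at 0.651, 0.921 and 1.15 CPM with CCS1477 (10, 15 and 19 reads), against 0.729, 0.602 and 0.585 CPM with DMSO (13, 11 and 9 reads). These values overlap and lie below the filter of 1 CPM in at least 3 libraries, so CAVIN3 was not tested in H2023.

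In ABC-1, the line whose values did not choose the members, 3 of 3 members tested were called changed, with CAV1 and CAV2 lower and CAVIN1 higher. Over all genes tested in H460, 56.1% were called, 28.2% higher and 27.9% lower. In H2023 60.6% were called, 28.6% higher and 31.9% lower, and in ABC-1 66.1% were called, 33.5% higher and 32.6% lower. A call alone therefore sets no gene apart in these data. The groups of these 3 members did not overlap in ABC-1, and the same was true of 70.4% of all genes tested there. Over all genes tested, that share was 64.0% in H460 and 65.2% in H2023. Neither calls nor groups without overlap are counted for the members in H460 and H2023, whose values chose them.

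With the caveolins lower and CAVIN1 higher, their proportions shifted in every line. Per kilobase of exon, CAVIN1 stood at 4.94, 4.22 and 4.09 times the level of CAV1 in the CCS1477 libraries of H460, against 0.793, 0.822 and 0.810 times in its DMSO libraries. The mean ratio was 7.50 ± 0.277 with CCS1477 and 1.66 ± 0.0111 with DMSO in H2023, and 9.41 ± 0.185 with CCS1477 and 1.36 ± 0.0831 with DMSO in ABC-1. These are shifts of 5.46-fold in H460, 4.52-fold in H2023 and 6.90-fold in ABC-1. Per kilobase, CAV1 was thus above CAVIN1 in untreated H460 cells only, and CAVIN1 was above CAV1 in every CCS1477 library.

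The ratio of CAV1 to CAV2 per kilobase was lower with CCS1477 in each line, with no overlap between treatments. It was 2.31 ± 0.0631 with CCS1477 and 4.93 ± 0.0780 with DMSO in H460, a factor of 0.469. In H2023 it was 1.81 ± 0.0909 with CCS1477 and 3.47 ± 0.0357 with DMSO, a factor of 0.522. In ABC-1 it was 1.40 ± 0.0913 with CCS1477 and 2.83 ± 0.1001 with DMSO, a factor of 0.496. Lengths count all annotated exons, 6926 bases in CAV2 against 4082 in CAV1. Those of CAV2 include exons of noncoding transcripts, so its level per kilobase may be too low and the ratio too high. The factors between treatments do not depend on these lengths. CAVIN3 per kilobase was a small fraction of CAVIN1, at 0.0487 ± 0.00140 with CCS1477 and 0.0544 ± 0.0113 with DMSO in H460.

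**Figure D2:**
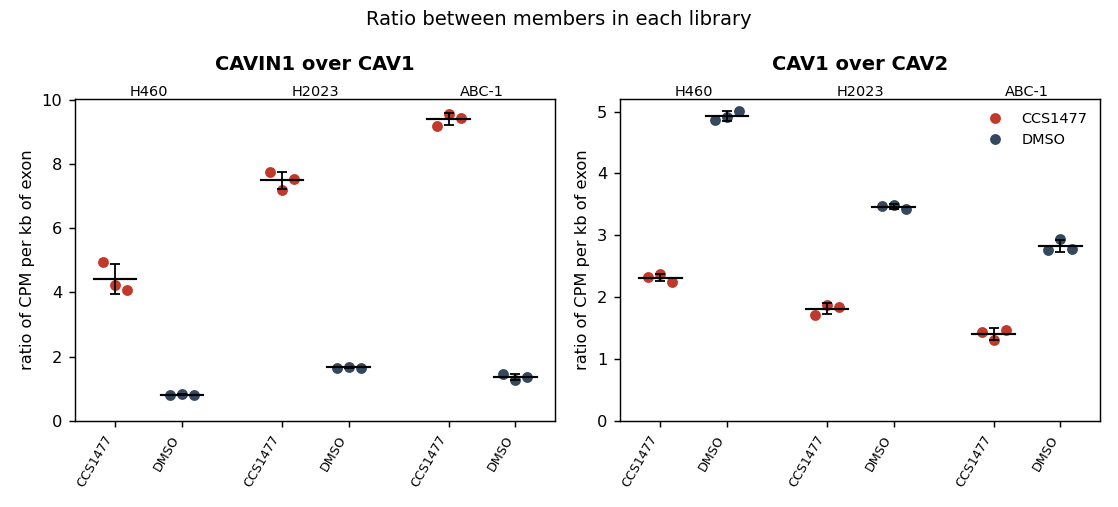
Ratio of CAVIN1 to CAV1 (left) and of CAV1 to CAV2 (right) in each library, from CPM per kilobase of exon on linear axes from 0. Points are libraries, with CCS1477 left of DMSO within each line, and lines and bars are the mean ± SD of 3 libraries. The first ratio is at least 4.09 with CCS1477 and at most 1.67 with DMSO, and the second is at most 2.38 with CCS1477 and at least 2.76 with DMSO.

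In untreated cells the order of the lines differed by gene, as a description of levels set across separately made tables. CAV1 was highest in H2023, with H460 at 0.948 of that level, and both stood above ABC-1, by 1.48-fold for H2023 and 1.41-fold for H460. H460 and H2023 were close, but their 3 DMSO libraries did not overlap. CAV2 was highest in H2023, 1.21-fold above ABC-1, while H460 had 0.805 of the ABC-1 level. CAVIN1 was also highest in H2023, at 1.81-fold the ABC-1 level, and H460 had 0.835 of the ABC-1 level. CAVIN3 was 6.17-fold higher in H460 than in H2023. No pair of lines overlapped in any of these genes.

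Per kilobase of exon, CAV1 and CAVIN1 ranked among the abundant gene rows of each line and CAV2 lower, with the limit on its exon length given above. CAV1 stood at the top 16.4%, 15.3% and 14.7% of gene rows with CCS1477 in H460, H2023 and ABC-1, against the top 4.28%, 3.58% and 6.39% with DMSO. CAVIN1 stood at the top 3.36%, 1.42% and 1.06% with CCS1477 in these lines, against the top 5.39%, 1.94% and 4.35% with DMSO. CAV2 stood at the top 33.4%, 26.7% and 20.7% with CCS1477 and at the top 21.95%, 14.8% and 18.5% with DMSO. CAVIN3 stood at the top 48.5% with CCS1477 and the top 53.6% with DMSO in H460.

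The tables also hold rows of single transcripts, which add to what the gene rows show. CAV1-206, a CAV1 transcript annotated as a target of nonsense-mediated decay, had 22, 15 and 21 reads in the CCS1477 libraries of H460, against 136, 83 and 156 reads in the DMSO libraries. Its level was 7.59-fold lower with CCS1477 in H460 (0.600 ± 0.0936 CPM against 4.55 ± 1.33 CPM in DMSO). It was 6.70-fold lower in H2023 (0.719 ± 0.320 CPM against 4.82 ± 1.26 CPM in DMSO) and 5.01-fold lower in ABC-1 (0.534 ± 0.168 CPM against 2.67 ± 0.367 CPM in DMSO). In CPM the treatments did not overlap in any of the lines. As a share of the reads of CAV1 it was 0.971% with CCS1477 and 2.04% with DMSO in H460. It was 1.15% with CCS1477 and 2.08% with DMSO in H2023, and 0.789% with CCS1477 and 1.70% with DMSO in ABC-1. In H2023 the shares overlapped, with the third CCS1477 library at 1.67% (17 reads) above the third DMSO library at 1.44% (52 reads).

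CAV2-214, a transcript of CAV2 annotated as noncoding, was lower without overlap in H2023, at 2.14 ± 1.12 CPM with CCS1477 and 5.15 ± 0.785 CPM with DMSO. Its libraries overlapped in H460 (1.67 ± 0.460 CPM with CCS1477 and 2.39 ± 0.423 CPM with DMSO) and in ABC-1 (1.38 ± 0.377 CPM with CCS1477 and 1.45 ± 0.535 CPM with DMSO). CAVIN3-204, a retained-intron transcript with a row in H460, had 58 reads with CCS1477 and 38 with DMSO, with overlap. Antisense genes are annotated opposite CAV1, CAV2 and CAVIN3. Whether the reads were counted by strand is not given in the sources used here, so reads of those genes cannot be set apart from the members' reads.

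Of the other proteins of the caveola coat and neck, 5 of 10 tested genes rose and 2 fell in H460, 4 of 9 rose and 4 fell in H2023, and 4 of 9 rose and 2 fell in ABC-1. Their median log2 change was 0.15, 0.21 and -0.07 in these lines, beside 0.00, -0.01 and 0.01 over all genes tested. Over all genes tested, 28.2%, 28.6% and 33.5% were called higher and 27.9%, 31.9% and 32.6% lower. CAVIN2, the cavin typical of endothelium, had a gene row in H460 only, where it stood at 47.2, 43.6 and 43.5 CPM with CCS1477 and at 99.5, 90.8 and 98.2 CPM with DMSO. It fell by 1.17 ± 0.05 on the log2 scale (limma adjusted p = 1.65e-06), opposite to CAVIN1 in the same cells. CAV3, the muscle caveolin, had no gene row in any line. CAVIN4, the muscle cavin, averaged 1.503 CPM with CCS1477 and 1.71 CPM with DMSO in H460 (limma adjusted p = 0.402).

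The EHD proteins are ATPases that ring the neck of the pit, and EHD2 is the one best known at caveolae. EHD2 rose in ABC-1, to 156 CPM with CCS1477 against 89.6 CPM with DMSO (log2 change 0.74 ± 0.04, limma adjusted p = 1.03e-08). It fell in H2023, to 114 CPM with CCS1477 against 138 CPM with DMSO (log2 change -0.33 ± 0.04, limma adjusted p = 1.46e-05). In H460 it was close to the filter, at 1.10 CPM with CCS1477 and 1.02 CPM with DMSO. EHD1, which acts in endosome recycling and can stand in for EHD2, rose in all 3 lines, by 0.66 ± 0.08 in H460, by 0.31 ± 0.04 in H2023 and by 0.47 ± 0.03 in ABC-1 (log2 changes; limma adjusted p at most 1.93e-04).

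PACSIN3, a membrane-bending adaptor of the caveolar neck, fell in all 3 lines, with log2 changes of -0.45 ± 0.09 in H460, of -1.06 ± 0.13 in H2023 and of -0.69 ± 0.08 in ABC-1 (limma adjusted p at most 0.00308). DNM2, the dynamin that cuts vesicles off, rose by 0.46 ± 0.06 in H460 and 0.35 ± 0.04 in H2023 (limma adjusted p at most 2.35e-04), while in ABC-1 a log2 change of -0.07 ± 0.04 was not called (limma adjusted p = 0.112). ROR1, a receptor-like kinase reported to hold CAV1 and CAVIN1 together, went opposite ways in different lines. It rose in H460, to 4.25 CPM with CCS1477 against 1.26 CPM with DMSO (log2 change 1.58 ± 0.14, limma adjusted p = 4.63e-05). It fell in H2023, to 24.7 CPM with CCS1477 against 42.2 CPM with DMSO, and in ABC-1, to 14.8 CPM with CCS1477 against 24.3 CPM with DMSO (log2 changes -0.82 ± 0.07 and -0.77 ± 0.09, limma adjusted p at most 1.15e-05).

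**Figure D3:**
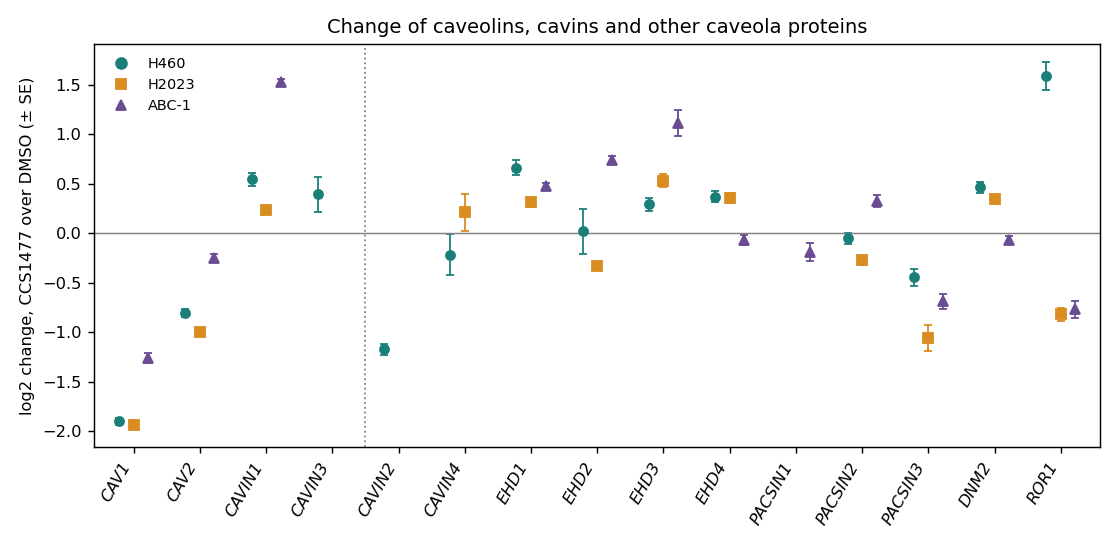
Log2 change of CCS1477 over DMSO on the deposited scale for CAV1, CAV2, CAVIN1 and CAVIN3 (left of the dotted line) and for the other coat and neck proteins (right of it), where they were tested. Points are the fitted changes in H460, H2023 and ABC-1 and bars are ± SE. CAV1 is the lowest point in each line, from -1.94 to -1.26, and EHD2 and ROR1 lie on both sides of 0.

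Of 9 kinases, adaptors and turnover factors of CAV1, 3 rose and 2 fell in H460, 4 rose and 2 fell in H2023, and 5 rose and 3 fell in ABC-1, with medians of 0.19, -0.04 and 0.29. Among all genes tested in these lines, 28.2%, 28.6% and 33.5% were called higher and 27.9%, 31.9% and 32.6% lower. SRC, which phosphorylates CAV1 on its tyrosine near the amino end, fell in all 3 lines. It stood at 78.4 CPM with CCS1477 and 147 CPM with DMSO in H460 (log2 change -0.98 ± 0.09, limma adjusted p = 4.71e-05). In H2023 it stood at 21.3 CPM with CCS1477 and 31.8 CPM with DMSO (log2 change -0.63 ± 0.08, limma adjusted p = 3.21e-05). In ABC-1 it stood at 3.66 CPM with CCS1477 and 13.0 CPM with DMSO (log2 change -1.83 ± 0.13, limma adjusted p = 2.88e-07).

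FYN, a kinase of the SRC family, rose in ABC-1, to 22.3 CPM with CCS1477 against 7.49 CPM with DMSO (log2 change 1.48 ± 0.09, limma adjusted p = 5.32e-08). In H2023 it averaged 4.57 CPM with CCS1477 and 0.352 CPM with DMSO, and in H460 1.87 CPM with CCS1477 and 0.641 CPM with DMSO. In these 2 lines FYN passed the filter only through the CCS1477 libraries, so its values there are given without a test. With 1 CPM required in all 6 libraries, FYN left the list in both lines, and 3 of 8 tested genes rose and 2 fell in H2023 and likewise in H460. VCP, the ATPase that draws ubiquitinated CAV1 to degradation, rose in all 3 lines, by 0.72 ± 0.07, 0.59 ± 0.04 and 0.60 ± 0.05 on the log2 scale in H460, H2023 and ABC-1 (limma adjusted p at most 8.17e-05). Its cofactor UBXN6 rose as well, by 0.43 ± 0.09, 0.36 ± 0.06 and 0.33 ± 0.05 in these lines (limma adjusted p at most 0.00310).

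The clathrin coat and the flotillins, which serve other routes of uptake, give the comparison with non-caveolar coats. Of 12 tested genes, 4 rose and 2 fell in H460, 3 rose and 3 fell in H2023, and 8 rose and 3 fell in ABC-1, with medians of 0.12, -0.01 and 0.16. DNM1, among those that rose in ABC-1, passed the filter there only through the CCS1477 libraries, and without it 7 of 11 rose. The shares over all genes tested were 28.2%, 28.6% and 33.5% higher and 27.9%, 31.9% and 32.6% lower in H460, H2023 and ABC-1. The clathrin heavy chain CLTC had log2 changes of 0.05 ± 0.05 in H460 and 0.00 ± 0.04 in H2023, which were not called, and 0.28 ± 0.04 in ABC-1 (limma adjusted p = 5.95e-05). FLOT1, a flotillin, fell by 0.74 ± 0.05 in H460 and by 0.20 ± 0.04 in H2023 (limma adjusted p at most 0.00142). In ABC-1 FLOT1 rose by 0.13 ± 0.04 (limma adjusted p = 0.0231), a call lost without the first or the second CCS1477 library. AP2B1, a subunit of the clathrin adaptor, fell by 0.29 ± 0.04 in H460 and by 0.47 ± 0.04 in H2023 and rose by 0.79 ± 0.04 in ABC-1 (limma adjusted p at most 6.27e-04).

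Of 11 transcription factors reported to act on CAV1, 1 rose and 5 fell in H460, 1 rose and 9 fell in H2023, and 4 rose and 6 fell in ABC-1, with medians of -0.14, -0.50 and -0.11. Beside these counts, 28.2%, 28.6% and 33.5% of all genes tested were called higher and 27.9%, 31.9% and 32.6% lower. YAP1, the coactivator of the Hippo pathway, fell in all 3 lines, with log2 changes of -0.30 ± 0.04 in H460, of -0.76 ± 0.05 in H2023 and of -0.52 ± 0.03 in ABC-1 (limma adjusted p at most 2.91e-04). WWTR1 (TAZ), its paralogue, fell in H460 and H2023, by 0.74 ± 0.04 and 0.83 ± 0.04 on the log2 scale, and rose by 0.39 ± 0.05 in ABC-1 (limma adjusted p at most 4.56e-05). EPAS1, the hypoxia factor HIF-2α, fell by 0.24 ± 0.05 in H460, by 0.70 ± 0.04 in H2023 and by 0.71 ± 0.03 in ABC-1 (limma adjusted p at most 0.00259). FOXO3 rose in all 3 lines, by 0.48 ± 0.08, 0.42 ± 0.05 and 0.39 ± 0.05 in H460, H2023 and ABC-1 (limma adjusted p at most 0.00154).

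E2F1, a cell cycle factor, fell by 1.51 ± 0.07 in ABC-1 and by 0.61 ± 0.06 in H2023 on the log2 scale (limma adjusted p at most 4.49e-06), and its log2 change in H460 was 0.09 ± 0.06 (limma adjusted p = 0.225). SP1, which binds GC boxes such as those shown, fell by 0.50 ± 0.03 in H2023 and by 0.56 ± 0.04 in ABC-1 (limma adjusted p at most 4.11e-07). In H460 its log2 change was -0.14 ± 0.05 (limma adjusted p = 0.0319), a call lost under scaling by library totals, under limma-voom, without the third CCS1477 library and without any 1 of the DMSO libraries.

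The genes on either side of the caveolin pair did not all go the way of CAV1 and CAV2. TES, a focal adhesion protein gene, lies 28.6 kb before the annotated start of CAV2 (chr7:116287380), which belongs to a noncoding transcript. The coding transcripts of CAV2 start much further on, at chr7:116499390 or later, near the promoter shown. TES had a log2 change of -0.04 ± 0.05 in H460 (limma adjusted p = 0.567) and rose by 0.20 ± 0.04 in ABC-1 (limma adjusted p = 0.00128). In H2023 its log2 change was -0.11 ± 0.04 (limma adjusted p = 0.0335), a call lost under scaling by library totals, under limma-voom and without any 1 of the libraries other than the third DMSO library. MET, the hepatocyte growth factor receptor gene 111.2 kb after CAV1, fell in all 3 lines. It stood at 116 CPM with CCS1477 and 146 CPM with DMSO in H460 (log2 change -0.41 ± 0.04, limma adjusted p = 8.28e-05). In H2023 it stood at 273 CPM with CCS1477 and 495 CPM with DMSO (log2 change -0.91 ± 0.04, limma adjusted p = 1.48e-08). In ABC-1 it stood at 208 CPM with CCS1477 and 268 CPM with DMSO (log2 change -0.42 ± 0.04, limma adjusted p = 2.44e-06). CAPZA2, an actin capping gene 12.7 kb beyond MET, rose by 0.18 ± 0.04 in H2023 and 0.28 ± 0.05 in ABC-1 (limma adjusted p at most 0.00363). In H460 it rose by 0.24 ± 0.09 (limma adjusted p = 0.0487), a call lost without the first or the third CCS1477 library, without the second or the third DMSO library, with a constant of 1 added before the log and with no filter on low values. Without the library that stands apart its log2 change was 0.15.

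Around CAVIN1, 15, 16 and 15 genes within 250 kb were tested in H460, H2023 and ABC-1, of which 6, 5 and 7 rose and 3, 5 and 4 fell. Of all genes tested in these lines, 28.2%, 28.6% and 33.5% were called higher and 27.9%, 31.9% and 32.6% lower. Without the library that stands apart, 6 of the genes near CAVIN1 rose and 5 fell in H460. A gene near CAVIN1 that rose in ABC-1, at 1.73 CPM with CCS1477 and 0.983 CPM with DMSO, passed the filter only through the CCS1477 libraries. With 1 CPM required in all 6 libraries that gene left the count, and 6 of 14 rose in ABC-1. In ABC-1 the count that fell was 2 without the third CCS1477 library and under scaling by library totals. STAT3, a cytokine signalling factor gene 13.9 kb from CAVIN1 on the same strand, rose in all 3 lines. It stood at 149 CPM with CCS1477 and 73.9 CPM with DMSO in H460 (log2 change 0.94 ± 0.04, limma adjusted p = 1.15e-06). In ABC-1 it stood at 183 CPM with CCS1477 and 89.2 CPM with DMSO (log2 change 0.98 ± 0.04, limma adjusted p = 5.40e-09). In H2023 it stood at 367 CPM with CCS1477 and 298 CPM with DMSO (log2 change 0.24 ± 0.03, limma adjusted p = 6.17e-05). ATP6V0A1, a proton pump subunit gene 35.3 kb away on the other side, rose by 0.36 ± 0.05, 0.16 ± 0.04 and 1.02 ± 0.04 on the log2 scale in H460, H2023 and ABC-1 (limma adjusted p at most 0.00370).

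Near CAVIN3, 7 genes were tested in each line, and 5 rose in each of them. The share called higher over all genes tested was 28.2%, 28.6% and 33.5% in H460, H2023 and ABC-1. TIMM10B, a gene of mitochondrial protein import, fell by 0.65 ± 0.08 on the log2 scale in H460 (limma adjusted p = 2.06e-04), and no other gene near CAVIN3 was called lower in any line. APBB1, among those that rose in ABC-1 (2.20 CPM with CCS1477 and 0.964 CPM with DMSO), passed the filter there only through the CCS1477 libraries. With 1 CPM required in all 6 libraries APBB1 left the count, and 4 of 6 rose in ABC-1. In H460 3 rose without the first or the second CCS1477 library and without the first or the third DMSO library. In H2023 3 rose without the second CCS1477 library and without the first or the second DMSO library. SMPD1, the acid sphingomyelinase gene, rose by 1.14 ± 0.10, 1.40 ± 0.08 and 0.57 ± 0.06 in H460, H2023 and ABC-1 (limma adjusted p at most 5.21e-05).

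**Figure D4:**
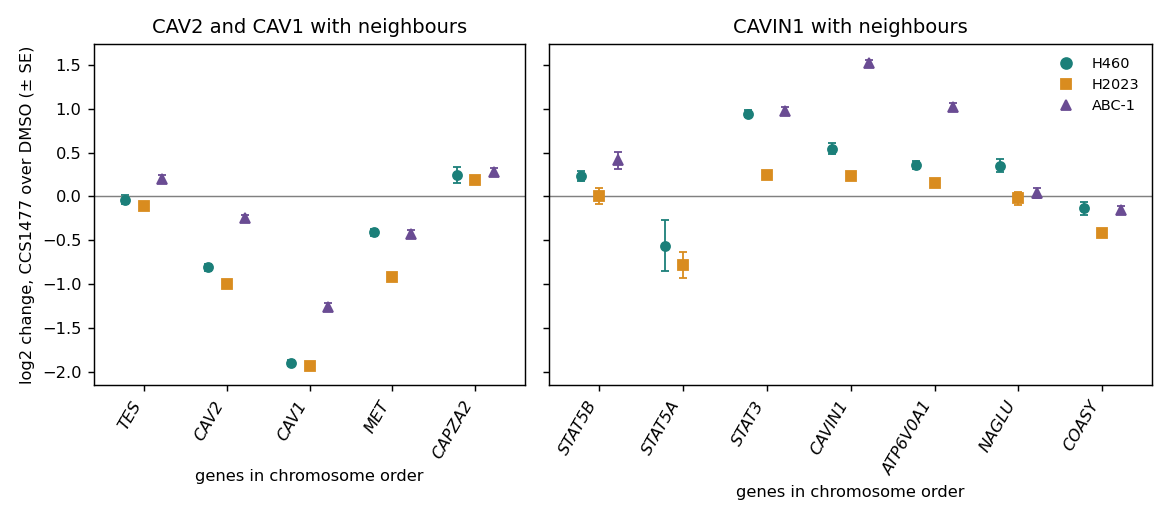
Log2 change of CCS1477 over DMSO on the deposited scale, with genes in chromosome order. The left panel holds CAV2, CAV1 and the tested genes around them. The right panel holds CAVIN1 and a selection of the tested genes within 250 kb. Points are the fitted changes in H460, H2023 and ABC-1 and bars are ± SE. CAV1 is the lowest of the left panel in each line, MET is below 0 and CAPZA2 above 0 in all 3 lines, and STAT3, CAVIN1 and ATP6V0A1 are above 0 in all 3 lines.

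The genes whose pattern was most like that of each member were ranked by Pearson r of log2(CPM + 1) over the 18 libraries, which share 6 groups, among 11582 genes. For CAV1 these were ENSG00000261167 (r = 0.955), HDGF, a growth factor gene (0.944), ODR4 (0.942), NOTCH3, a Notch receptor gene (0.939), and MTPAP, a mitochondrial poly(A) polymerase gene (0.938). HDGF stood at 296 CPM with CCS1477 and 684 CPM with DMSO in H460, at 281 CPM with CCS1477 and 621 CPM with DMSO in H2023, and at 282 CPM with CCS1477 and 739 CPM with DMSO in ABC-1. Like CAV1, HDGF stood at similar levels with CCS1477 in all 3 lines, but it was picked for its likeness to CAV1 over these libraries. CAV2 had rank 203 in likeness to CAV1 (r = 0.735), and the r of CAVIN1 with CAV1 was -0.558.

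For CAV2 the closest were SDC1, the heparan sulphate carrier syndecan-1 (r = 0.978), ZFHX3 (0.932) and UNC13A (0.926). SDC1 stood at 71.9 CPM with CCS1477 and 135 CPM with DMSO in H460, at 111 CPM with CCS1477 and 221 CPM with DMSO in H2023, and at 146 CPM with CCS1477 and 178 CPM with DMSO in ABC-1. For CAVIN1 they were PPP2R5B, a regulatory subunit of the phosphatase PP2A (r = 0.987), CEP19 (0.982) and RBAK (0.975). PPP2R5B stood at 3.08 CPM with CCS1477 and 1.47 CPM with DMSO in H460, at 8.48 CPM with CCS1477 and 5.83 CPM with DMSO in H2023, and at 11.0 CPM with CCS1477 and 2.49 CPM with DMSO in ABC-1. For CAVIN3, over the 12 libraries of H460 and H2023, the closest of 11704 genes were PSMA7 (r = 0.992), CFAP20 (0.991) and HNRNPM (0.990), whose values mainly separate the lines.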

How the data were processed

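The 18 libraries were made with a directional MGI kit from total RNA isolated with Sepasol and were read in pairs on a DNBSEQ instrument, per the labels' protocols. The dose is 5 µM in the sample descriptions and 5 mM in the series' text, and 5 µM is used here. The build is GRCh38, per the submitters' processing notes; aligner, counting program and RNA selection: not given in the sources used here. The authors deposited log2 values in a table per line, whose name gave each column its line. From the values themselves they are log2 of reads times a factor per library, plus 4, and rows with no reads hold 2. Undoing this gave whole reads within 0.1 for 100% of values of up to 1000 reads. Each table was scaled separately, and rows of single transcripts (9.19 to 10.7% of reads) were kept apart.

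Symbols were matched by gene ID, and positions and exon lengths came from GENCODE 29. CPM used all recovered reads. In each line, gene rows that reached 1 CPM in 3 or more of the 6 libraries entered limma-trend (limma 3.58.1, R 4.3.3) with the log2 values as deposited. The 3 CCS1477 libraries were set against the 3 DMSO libraries in a two-sided test, adjusted by Benjamini-Hochberg over all genes tested, at a threshold of 0.05. Levels between lines were not tested. The scripts were tested on simulated data. The members and the 4 gene lists were chosen with earlier results of these data known. A gene of the transcription factor list is not reported here and is left out of its counts. From each list up to 4 genes per line with the smallest p could be named, besides coat genes that were missing or low; from the genes within 250 kb of a member, up to 3 per line; and the 3 genes most like a member (5 for CAV1) among those whose mean reached 5 CPM in a group. Alternatives were other scalings, a constant of 1, other filters, limma-voom, the replicate number as a block and each library left out. The reads of transcript rows were added to the changes as an alternative chosen after seeing the data.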

Additional observations from a re-analysis of the deposited data

Results flagged for a closer look

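Each gene here had all CCS1477 libraries above all DMSO libraries in one line and all below them in another, on the deposited scale. These opposite directions drew attention, and the difference between the lines was not tested. None of the caveolins and cavins did so.

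Among coat and neck proteins, the log2 change of EHD2 was 0.74 in ABC-1 and -0.33 in H2023, a difference of 1.07. That of ROR1 was 1.58 in H460 and -0.82 in H2023, a difference of 2.40, and that of DNM2 was 0.46 in H460 and -0.07 in ABC-1, where it was not called, a difference of 0.53. Among the clathrin coat and the flotillins, FLOT1 differed by 0.86 (0.13 in ABC-1 and -0.74 in H460), AP2B1 by 1.26 (0.79 in ABC-1 and -0.47 in H2023), DNM1 by 1.68 (1.19 in ABC-1, where it passed the filter only through the CCS1477 libraries, and -0.49 in H2023) and PICALM by 0.54 (0.41 in H2023 and -0.13 in ABC-1). Among the transcription factors, WWTR1 differed by 1.22 (0.39 in ABC-1 and -0.83 in H2023). TES, which lies before CAV2 on the chromosome, differed by 0.31 (0.20 in ABC-1 and -0.11 in H2023).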

How the results depend on the processing

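The directions of CAV1, CAV2 and CAVIN1 held under every alternative run, as did their calls in ABC-1. The log2 changes moved by more than the spread between replicates under scaling by library totals and under limma-voom. They were -1.83 and -1.83 for CAV1 in H460, -0.73 and -0.74 for CAV2 in H460, -1.88 and -1.89 for CAV1 in H2023, -0.95 and -0.95 for CAV2 in H2023, and 0.29 and 0.29 for CAVIN1 in H2023. In ABC-1 they were -0.19 and -0.19 for CAV2 and 1.58 and 1.58 for CAVIN1, which kept their calls. Untreated levels over gene reads only were 242, 254 and 173 CPM for CAV1 in H460, H2023 and ABC-1, 83.1, 124 and 104 CPM for CAV2, and 183, 395 and 221 CPM for CAVIN1. With transcript rows added they were 223 and 235 CPM for CAV1 in H460 and H2023, and 77.5, 118 and 94.8 CPM for CAV2 in H460, H2023 and ABC-1. Scaling by library totals moved the share of called genes that rose in H460 to 60.2%, against 50.3% on the deposited scale. The replicate numbers did not pair the libraries (correlations of same-numbered deviations from -0.10 to 0.10), and with a replicate block 7356, 8806 and 8768 genes were called in H460, H2023 and ABC-1, against 7584, 8824 and 8949 without it. Under limma-voom 5 kinases and turnover factors and 7 clathrin and flotillin genes rose in H460, against 3 and 4 on the deposited scale. The 5 include FYN, which passed the filter there only through the CCS1477 libraries.

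With each library left out in turn, 6510 to 7768, 8142 to 8265 and 8407 to 8699 genes were called in H460, H2023 and ABC-1. The log2 change of CAV1 ran from -1.91 to -1.89, -1.97 to -1.92 and -1.29 to -1.21 in these lines, that of CAV2 from -0.82 to -0.80, -1.02 to -0.97 and -0.28 to -0.22, that of CAVIN1 from 0.47 to 0.60, 0.22 to 0.25 and 1.497 to 1.55, and that of CAVIN3 in H460 from 0.23 to 0.55. The adjusted p in ABC-1 ranged over all alternatives from 9.15e-11 to 6.27e-08 for CAV1, 1.88e-04 to 0.00228 for CAV2 and 1.96e-12 to 7.86e-09 for CAVIN1. Over the 40 other genes named by the rule, none reversed a call. FYN in H460 is left out here, since it passed the filter only through the CCS1477 libraries. CLTC in H460 passed the threshold under limma-voom and without the first CCS1477 library. E2F1 in H460 passed it under scaling by library totals and limma-voom. With E2F1, 2 transcription factors rose there, as without the third CCS1477 library, against 1 on the deposited scale. DNM2 in ABC-1 passed the threshold under scaling by relative log expression. FLOT1 in ABC-1 lost its call without the first or the second CCS1477 library. Depth limits CAVIN3, CAV1-206 and the other transcript rows, which rest on few reads.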
